A study of Capra hircus with 2 samples.

Results

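The microRNAs (miRNAs) of 2 X-linked pairs, miR-221 with miR-222 and miR-224 with miR-452, were followed in small RNA libraries from goat testicular cells. An entry of the deposited tables was taken when its miRNA name, without species prefix, copy number and arm, named a member of either pair. In CD49f-positive cells 12 of 2599 entries were taken and in CD49f-negative cells 12 of 2338, which summed to 8 miRNA arms of 1808 named arms. The arms at the 5′ and the 3′ side of each hairpin (5p and 3p) were all found. Of these 8 arms, 6 had at least 100 reads over both libraries, as had 298 of all 1808 arms, while miR-222-5p and miR-224-3p had fewer.

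The cells came from 3 testes of 3 Saanen dairy goats aged 5 months. After enzymatic release and a night of plating, meant to remove attaching Sertoli and myoid cells, the unattached cells were sorted magnetically for CD49f (integrin alpha-6), a laminin receptor subunit on the surface of spermatogonial stem cells and of other testicular cells. The comparison asks how the levels of the followed miRNAs relate to the CD49f sort. Both fractions are described with the same age, strain and number of goats and testes. Whether each library held cells of the same animals in the same proportions is not stated. With 1 library per group, differences from library making or sequencing cannot be told apart from those of the sort. The design text speaks of triplicates, but each group had 1 library here and whether animals were pooled is not stated. No difference has a replicate check, so no p-value is given and every interval covers counting error only. The libraries carried no stated molecular identifiers, so reads copied by PCR do not count separate molecules. CD49f itself was not measured by these libraries.

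A miRNA guides repression of messenger RNAs mainly through its seed, the bases after the first at its 5′ end, so miRNAs with the same seed share many targets. miR-221 and miR-222 are transcribed together from the X chromosome and are known for repressing KIT, the receptor for stem cell factor that marks differentiating spermatogonia, and the cell cycle inhibitor CDKN1B. miR-224 and miR-452 lie in an intron of GABRE, a GABA-A receptor subunit gene, in several mammals. Among other settings, miR-224 has been studied in ovarian granulosa cells, where it acts in TGF-beta signalling, and miR-452 in neural crest and tumour cells.

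The sequence listed with most copies for each arm is shown because it carries the seed, which only miR-221-3p and miR-222-3p share. The capitals mark the seed, bases 2 to 8 from the 5′ end, and the letters are DNA letters as in the deposited tables.
miR-221-3p: aGCTACATtgtctgctgggttt
miR-222-3p: aGCTACATctggctactgggtctc
miR-221-5p: aCCTGGCAtacaatgtagatt
miR-222-5p: aATGTGTAggtaccctcaat
miR-224-5p: cAAGTCACtagtggttccgttt
miR-452-5p: aACTGTTTgcagaggaaactga
miR-224-3p: aAATGGTAccctagtgactaca
miR-452-3p: tCAGTCTCatctgcaaagaagt

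miR-221-3p and miR-222-3p had the same seed, and their listed sequences were identical over the first 8 bases and at 11 of 22 aligned positions. Their 5p arms had different seeds and shared 7 of 20 aligned positions. miR-224-5p and miR-452-5p, which come from neighbouring hairpins, had different seeds and were identical at 3 of 22 positions. No other name in either library carried the seed of miR-221-3p and miR-222-3p, or that of miR-224-5p, in its most copied sequence. The seed of miR-452-5p occurred in 1 other name, miR-1284-5p, with 1 read in all.

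The hairpins lie on the X chromosome in the coordinates of the deposited tables, whose genome build is not given in the sources used here. They are shown to place the arms, which are in capitals as listed for the CD49f-positive library, 5′ to 3′ on the strand named.
miR-222, chrX:87016270-87016381, plus strand: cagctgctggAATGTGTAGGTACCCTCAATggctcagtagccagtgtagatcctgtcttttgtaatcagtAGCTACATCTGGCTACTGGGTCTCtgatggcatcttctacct
miR-221, chrX:87016959-87017068, plus strand: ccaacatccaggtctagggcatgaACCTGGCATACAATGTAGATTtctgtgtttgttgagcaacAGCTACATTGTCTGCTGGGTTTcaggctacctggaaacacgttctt
miR-452, chrX:53486164-53486260, minus strand: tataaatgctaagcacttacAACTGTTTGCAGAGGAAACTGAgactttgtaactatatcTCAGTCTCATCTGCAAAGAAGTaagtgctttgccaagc
miR-224, chrX:53485138-53485218, minus strand: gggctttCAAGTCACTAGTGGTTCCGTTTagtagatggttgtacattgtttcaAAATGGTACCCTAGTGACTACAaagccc

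The miR-222 and miR-221 hairpins were separated by 577 bases, and those of miR-452 and miR-224 by 945 bases. In the RefSeq annotation of goat assembly ARS1.2, used for names and order only, MIR221 and MIR222 lie in no protein-coding gene, between PLS3 and WDR44. MIR224 lies within GABRE there. The folding energy given in the tables was -43.9 kcal/mol for the miR-221 hairpin, -43 for miR-222, -37.3 for miR-452 and -36.5 for miR-224, and the GC content was 46.4%, 48.2%, 38.1% and 43.2%. Nearly all reads of the 4 names lay at these hairpins: 8 further entries outside them held 13 reads in all, none free of mismatches. The counts of the 4 miRNAs were whole numbers.

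**Figure D1:**
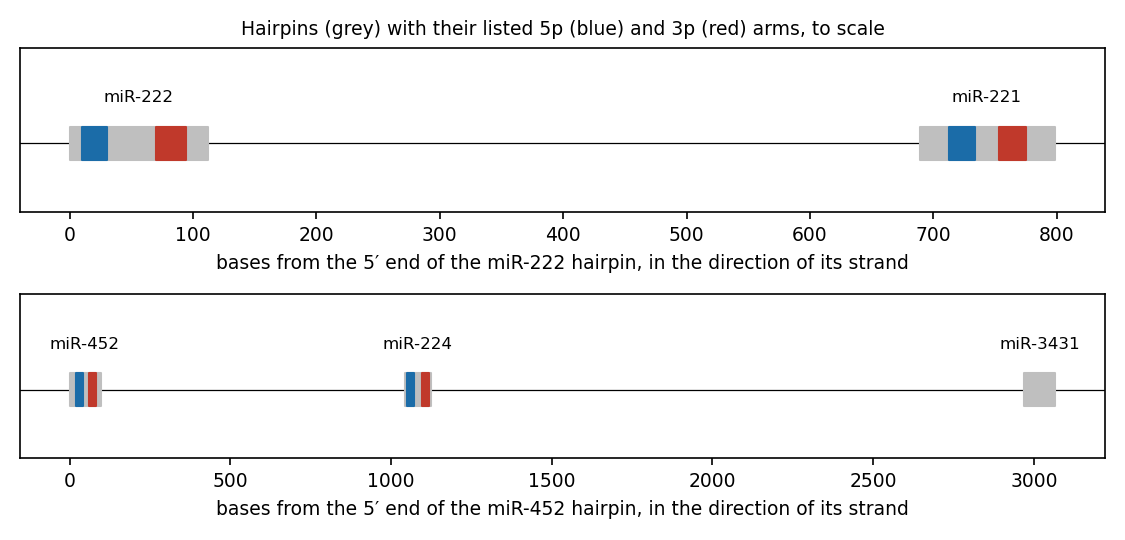
Map of the hairpins of miR-222 and miR-221 (upper panel) and of miR-452, miR-224 and the neighbouring miR-3431 (lower panel). The x axis gives bases from the 5′ end of the first hairpin along its strand; grey bars are the hairpins and blue and red bars the listed 5p and 3p arms. The gap between miR-222 and miR-221 is 577 bases and that between miR-452 and miR-224 is 945 bases.

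The libraries held 8196507 and 3064462 reads with a miRNA name in CD49f-positive and CD49f-negative cells, so that 3 reads, the limit that a count of 0 allows, correspond to 0.366 and 0.979 RPM. Levels below are RPM, the reads of an arm scaled to 1e6 named miRNA reads, and a ratio is the CD49f-positive over the CD49f-negative level. Of marker miRNAs, the list of meiotic and post-meiotic germ cells held miR-34b, miR-34c and the miR-449 family. It took up 2.25% of the named reads after positive and 11.4% after negative sorting. All 7 measured arms of this list were at least 2-fold lower in CD49f-positive cells, beside 24.8% of the 298 arms with at least 100 reads. The shares were 22.6% and 19.0% for smooth muscle and myoid miRNAs, 1.43% and 0.755% for endothelial miR-126, 0.489% and 0.560% for mesenchymal, 0.296% and 0.372% for red blood cell, 0.0197% and 0.0248% for white blood cell, 0.191% and 0.296% for Sertoli and gonadal, and 0.00670% and 0.0245% for epithelial miRNAs, of which miR-205 was not listed. Within the smooth muscle list miR-143-3p held 1813387 and 564567 reads. Of the 6 measured arms of that list, 2 had a log2 ratio above 0 and 2 were at least 2-fold lower, beside 24.8% of all arms. The median log2 ratio was -0.54. Under the TMM scaling described below, 1 of these arms was higher and 0 lower, beside 9.06% and 13.4% of all arms. Of the 4 measured white blood cell arms, 1 had a log2 ratio above 0, miR-155-5p at 0.59. None of them was at least 2-fold higher or lower by read total. Under TMM miR-155-5p and the 2 arms of miR-126 were higher. All 7 meiotic and post-meiotic arms and the 2 measured epithelial arms were lower under TMM. Pluripotent miRNAs had 4 reads in CD49f-positive and 0 in CD49f-negative cells, with miR-302a and miR-371 listed in neither. Their part in the results below was not tested, and fewer cells of a type cannot be told apart from less of a miRNA per cell.

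The 4 miRNAs were of middle abundance and together slightly more frequent in CD49f-positive cells. They held 10064 reads, or 0.123% of the named reads, in CD49f-positive cells and 2988 reads, or 0.0975%, in CD49f-negative cells. The log2 ratio of the sum was 0.33 (95% interval 0.27 to 0.39), a 1.26-fold difference. miR-224 with miR-452 took 60.9% of these reads in CD49f-positive cells (95% interval 59.9 to 61.8) and 58.1% in CD49f-negative cells (56.3 to 59.9), an odds ratio of 1.12 (1.03 to 1.22).

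miR-224-5p had the highest level among the 4 miRNAs in CD49f-positive cells. It had 3272 reads there, or 399 RPM (386 to 413), and 739 reads, or 241 RPM (224.1 to 259), in CD49f-negative cells. The intervals did not overlap and the CD49f-positive library was the higher, with a log2 ratio of 0.73 (0.61 to 0.84), or 1.65-fold. This put miR-224-5p above 283 of the 298 arms with at least 100 reads, and in place 71 and 103 by abundance among all names of each library. Its partner arm miR-224-3p, the side of the duplex that is mostly discarded, had 32 and 9 reads, and its ratio could not be told from equal levels at this depth (log2 ratio 0.36, -0.69 to 1.66).

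miR-452-5p came next in CD49f-positive cells and first in CD49f-negative cells, with nearly the same level in each. It had 2644 reads, or 323 RPM (310.4 to 335), in CD49f-positive cells and 932 reads, or 304 RPM (285 to 324), in CD49f-negative cells. These intervals overlapped, and the log2 ratio was 0.084 (-0.023 to 0.19). miR-452-3p had 176 and 56 reads, or 21.5 and 18.3 RPM, and a log2 ratio of 0.22 (-0.21 to 0.69), which likewise includes equal levels.

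miR-221, of the KIT-repressing pair, had many reads from each arm, with the 5p arm at 0.962 times the 3p arm in CD49f-positive and 0.586 times in CD49f-negative cells. miR-221-3p, the arm with the shared seed, had 1586 reads, or 193 RPM (184 to 203), in CD49f-positive cells and 633 reads, or 207 RPM (191 to 223), in CD49f-negative cells. The intervals overlapped, and the log2 ratio of -0.095 (-0.23 to 0.041) was below 0 with the read total, as for no other of the 6 arms, and above 0 under each other scaling tried. miR-221-5p had 1525 reads, or 186 RPM (177 to 196), and 371 reads, or 121 RPM (109 to 134), and was higher in the CD49f-positive library without overlap, at a log2 ratio of 0.62 (0.46 to 0.79), or 1.54-fold.

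miR-222-3p, which carries the seed of miR-221-3p, was less abundant and higher in CD49f-positive cells. It had 786 reads, or 95.9 RPM (89.3 to 103), and 233 reads, or 76.0 RPM (66.6 to 86.4), with a log2 ratio of 0.33 (0.12 to 0.55), or 1.26-fold. miR-222-5p was read 43 and 15 times, at a log2 ratio of 0.069 (-0.78 to 1.05), which at this depth leaves any direction possible. Of the seed-sharing 3p arms, the more abundant had overlapping levels and the less abundant was higher by less than 2-fold.

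**Figure D2:**
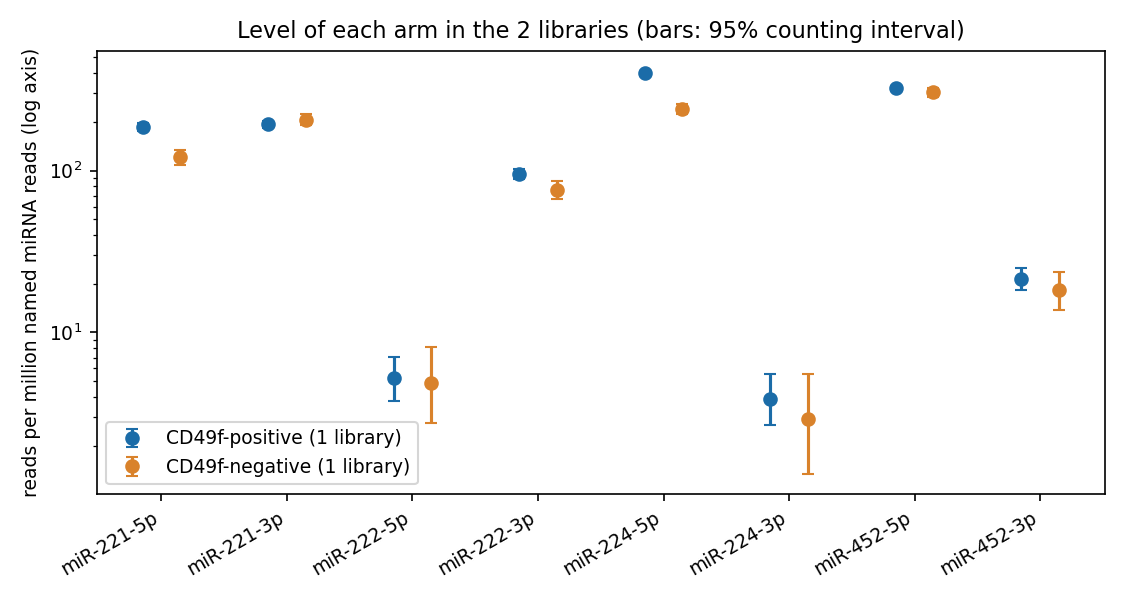
Level of each arm of the 4 miRNAs in RPM of named miRNA reads (y axis, log scale) in the CD49f-positive (blue) and CD49f-negative (orange) library. Points are the values of 1 library each and bars are 95% counting intervals. miR-221-5p lies at 186 and 121 and miR-224-5p at 399 and 241, apart from each other, while the intervals of miR-221-3p and of miR-452-5p overlap.

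In order of level in CD49f-positive cells, miR-224-5p was followed by miR-452-5p, miR-221-3p, miR-221-5p, miR-222-3p, miR-452-3p, miR-222-5p and miR-224-3p. Neighbours in this order had overlapping intervals for miR-221-3p and miR-221-5p, and for miR-222-5p and miR-224-3p. In CD49f-negative cells miR-452-5p stood before miR-224-5p and the order was otherwise the same, with overlap only between miR-222-5p and miR-224-3p. These counts are not corrected for length, and the listed sequences were 20 to 24 bases long.

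None of the 6 arms with at least 100 reads was at least 2-fold higher or lower, with an interval that excluded 1. Among all 298 arms, 2.01% were higher and 24.8% lower by this rule. The median log2 ratio of the 6 arms was 0.28, with 5 of 6 above 0, and that of all 298 arms was -0.43, with 75 above 0.

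The scaling between libraries moved these calls. The 10 most abundant names took up 82.8% and 78.8% of the named reads in CD49f-positive and CD49f-negative cells, and the meiotic and post-meiotic list 2.25% and 11.4%; their part in the shift was not tested. TMM, which trims the names with extreme ratios before it scales, added 0.44 to each log2 ratio. It put 2 of the 6 arms past 2-fold, miR-224-5p at 1.17 (1.06 to 1.29) and miR-221-5p at 1.06 (0.90 to 1.23), beside 9.06% of all arms higher and 13.4% lower. miR-221-3p, below 0 with the read total, was above 0 with TMM, at 0.35 (0.22 to 0.49), and miR-452-5p was at 0.53 (0.42 to 0.64). The median of the 6 arms was then 0.72, and that of all 298 arms 0.017. The call of miR-221-5p turned on which names set the TMM factor. With names of at least 100 reads it was at 0.96 and uncalled, and miR-224-5p was the 1 arm called, at 1.07, beside 5.7% higher and 16.4% lower. With all names 4 arms were called, beside 16.4% higher and 5.03% lower. The median of ratios called miR-224-5p and miR-221-5p, beside 11.4% higher and 9.4% lower, and a total without the 10 most abundant names called miR-224-5p, at 1.03, beside 5.37% higher and 17.4% lower.

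**Figure D3:**
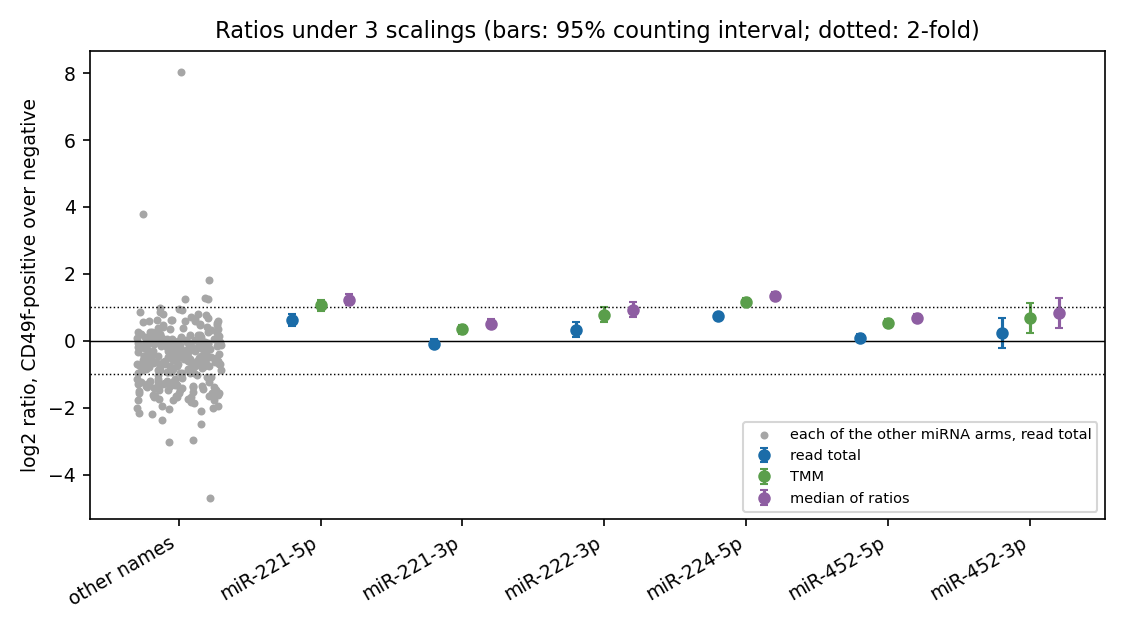
Log2 ratio of the CD49f-positive over the CD49f-negative level (y axis) for the 6 arms with at least 100 reads under 3 scalings (read total in blue, TMM in green, median of ratios in purple), with 95% counting intervals; grey points are the other arms under the read total. With the read total none of these 6 arms reaches the dotted 2-fold line, and with TMM miR-224-5p lies at 1.17 and miR-221-5p at 1.06.

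Ratios between arms within a library depend on no scaling, and 7 were computed, chosen after values had been seen. miR-221-5p made up 49.0% of the miR-221 reads in CD49f-positive cells (47.2 to 50.8) and 37.0% in CD49f-negative cells (34.0 to 40.0), an odds ratio of 1.64 (1.41 to 1.90). These arms come from the same hairpin. Of 63 miRNA names with at least 100 reads for each arm, 34 had an interval of this odds ratio that excluded 1, 22 of them toward the 5p arm, which is 34.9%. miR-221 stood in place 17 by the size of the shift, and the median absolute log2 odds ratio was 0.34 against 0.71 for miR-221.

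The arm shares of the other 3 hairpins differed by less than counting error. miR-452-5p made up 93.8% (92.8 to 94.6) and 94.3% (92.7 to 95.7) of the miR-452 reads, with an odds ratio of 0.903 (0.6498 to 1.24). miR-224-5p made up 99.0% (98.6 to 99.3) and 98.8% (97.7 to 99.4) of the miR-224 reads, with an odds ratio of 1.25 (0.520 to 2.68). miR-222-5p made up 5.19% (3.78 to 6.92) and 6.05% (3.42 to 9.78) of the miR-222 reads, with an odds ratio of 0.850 (0.453 to 1.68).

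Between neighbouring hairpins the balance also moved. Such ratios were not computed for other names, so no share over all names stands beside them. miR-224-5p was more frequent than miR-452-5p in CD49f-positive cells, with 55.3% of the reads of miR-224-5p and miR-452-5p (54.0 to 56.6), and the less frequent in CD49f-negative cells, with 44.2% (41.8 to 46.6). The odds ratio was 1.56 (1.40 to 1.74), so the order of these arms turned between the libraries. miR-222-3p held 33.1% of the reads of the seed-sharing 3p arms in CD49f-positive cells (31.2 to 35.1) and 26.9% in CD49f-negative cells (23.98 to 29.99), an odds ratio of 1.35 (1.13 to 1.61).

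**Figure D4:**
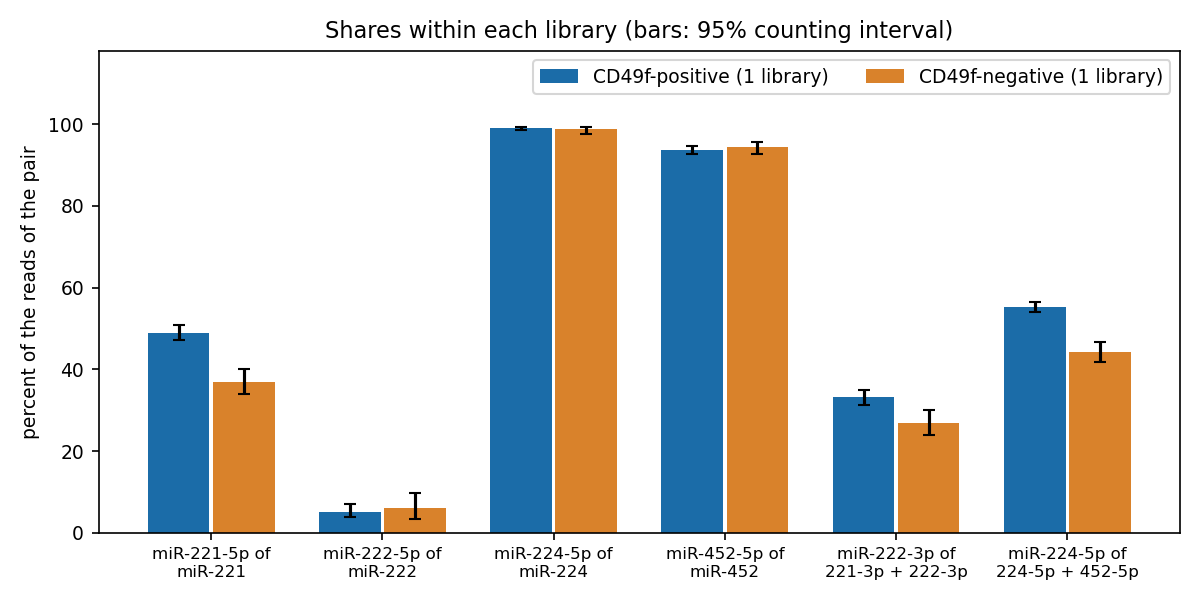
Shares of reads within each library, in percent (y axis from 0), for the 5p arm of each of the 4 hairpins and for 2 pairs of neighbouring arms, in CD49f-positive (blue) and CD49f-negative (orange) cells, with 95% counting intervals. miR-221-5p of miR-221 (49.0% and 37.0%) and miR-224-5p of the miR-224-5p and miR-452-5p reads (55.3% and 44.2%) differ without overlap, while the arm shares of miR-222, miR-224 and miR-452 overlap.

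The miR-224 hairpin has a further neighbour, miR-3431, a miRNA described in cattle, at chrX:53483194-53483290 on the same strand and 1847 bases away. RefSeq also places MIR3431 within GABRE. miR-3431-5p was read 607 and 418 times, at a log2 ratio of -0.88 (-1.06 to -0.70) by read total and -0.44 by TMM, below 0 where miR-224-5p was above 0 under either scaling. miR-3431-3p was read 98 and 33 times, at a log2 ratio of 0.14 (-0.43 to 0.77). No unnamed candidate hairpin was listed within 10000 bases of the 4 hairpins.

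The reads of the 4 miRNAs matched the listed hairpins better in the CD49f-positive library. Reads with no mismatch made up 86.3% of their reads there (85.6 to 87.0) and 78.5% in the CD49f-negative library (77.0 to 80.0), against 67.3% and 64.0% of all named reads. miR-224-5p had 91.3% (90.2 to 92.2) and 82.7% (79.8 to 85.3), and miR-452-5p 90.5% (89.4 to 91.6) and 82.7% (80.1 to 85.1). miR-221-5p had 93.4% and 89.2%, with intervals that overlapped narrowly. The intervals of miR-452-3p also overlapped narrowly, at 93.2% (88.39 to 96.4) and 78.6% (65.6 to 88.41), the widest difference of the 6 arms. miR-221-3p was the poorest of the 6 arms, with 66.5% (64.1 to 68.8) and 61.9% (58.0 to 65.7), and miR-222-3p hardly differed, at 77.0% and 76.8%. The same direction was the rule in these libraries: the share was higher in CD49f-positive cells for 244 of 297 arms with at least 100 summed reads and reads in each library (82.2%) and for all 6 of these arms, with median differences of 5.62 and 6.17 percentage points. The median share of the 297 arms was 76.8% in CD49f-positive and 71.25% in CD49f-negative cells, above that of all named reads. Over reads with no mismatch the log2 ratios were 0.80 (0.67 to 0.92) for miR-224-5p, 0.61 (0.44 to 0.79) for miR-221-5p, 0.26 (0.022 to 0.51) for miR-222-3p, 0.14 (0.025 to 0.26) for miR-452-5p and -0.066 (-0.23 to 0.11) for miR-221-3p. For miR-452-3p the ratio over these reads was 0.39 (-0.082 to 0.92).

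**Figure D5:**
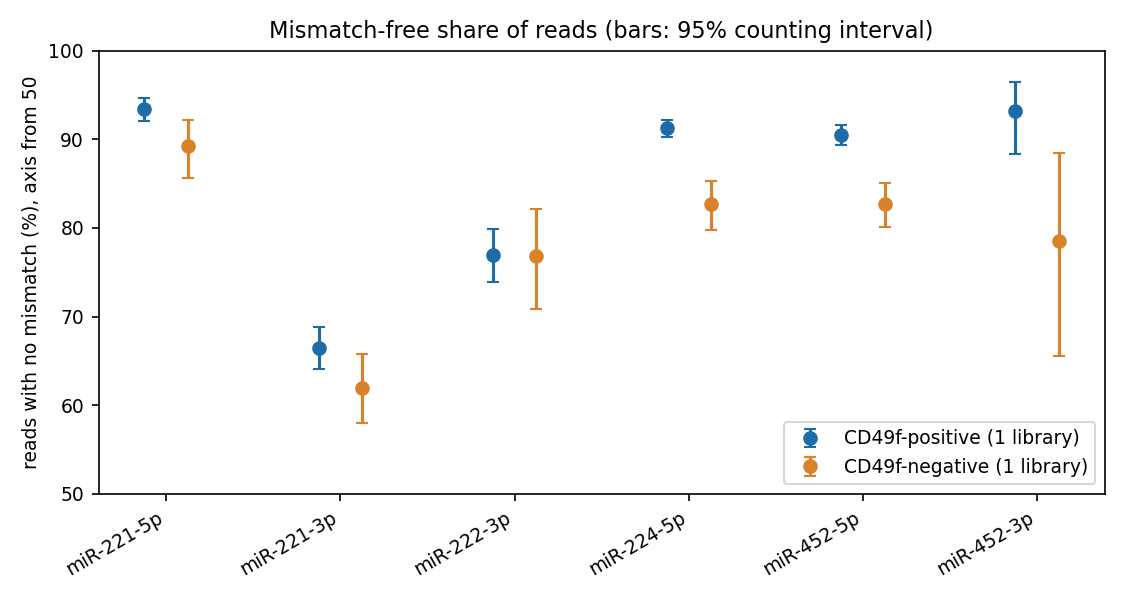
Percent of reads with no mismatch (y axis, which starts at 50) for the 6 arms with at least 100 reads, in the CD49f-positive (blue) and CD49f-negative (orange) library, with 95% counting intervals. miR-224-5p lies at 91.3% and 82.7% and miR-452-5p at 90.5% and 82.7%, without overlap, and miR-222-3p at 77.0% and 76.8%.

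The most copied sequence of an arm showed where its ends lay. For miR-221-3p it differed between the libraries by 1 base at the 3′ end, and both forms are shown for that reason, with the seed in capitals.
CD49f-positive, 510 copies: aGCTACATtgtctgctgggttt
CD49f-negative, 181 copies: aGCTACATtgtctgctgggtttc
The longer form continues along the hairpin. Among 241 arms with a listed sequence at known hairpins in each library and at least 100 reads, the sequence differed for 49, of which 25 were longer in CD49f-positive and 15 in CD49f-negative cells. The files list 1 sequence per arm, so the full range of ends was not analysed here.

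The other 5 arms with at least 100 reads had the same most copied sequence in each library. miR-222-3p was listed with 24 bases, 3 more at the 3′ end than the cattle sequence it was named from, with 267 and 62 copies. miR-221-5p had 21 bases, 5 fewer than the pig sequence, with 542 and 144 copies. miR-224-5p had 22 bases, 1 fewer than the cattle sequence, with 2328 and 450 copies, which were 71.2% and 60.9% of its reads at the hairpin. miR-452-5p was the same as the pig sequence, with 1110 and 329 copies, or 42.0% and 35.3% of its reads. miR-452-3p, with 147 and 40 copies, differed from the mouse sequence by G20A, and miR-224-3p by G8A, counted from 1 at the 5′ end with the mouse base first.

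Other miRNAs known to target KIT were examined beside miR-221 and miR-222 from a list of 6 names (miR-34a, miR-34c, miR-137, miR-193a, miR-193b and miR-494). Both arms of a name were counted, whichever of them targets KIT. Of the 6 measured arms of the list 2 were at least 2-fold lower and none was higher, beside 24.8% lower and 2.01% higher among all arms. The median log2 ratio was -0.21, or 0.24 with TMM, against -0.43 and 0.017 for all arms. The lower arms were miR-34c-5p, best known from spermatocytes and spermatids, with 174239.5 and 333117 reads and -2.35, and miR-34c-3p, at -2.02. The log2 ratio was 0.38 (0.037 to 0.74) for miR-193a-5p and 0.087 (-0.41 to 0.67) for miR-193a-3p. None of the reads of these miR-193a arms lay at a known hairpin. For miR-193b-3p the log2 ratio was 0.0073 (-0.35 to 0.40) and for miR-494-3p -0.42 (-0.80 to -0.033). In this list miR-34c-5p had far more reads than miR-221-3p and miR-222-3p in each library.

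Of miRNAs that rodent work links to retinoic acid and KIT in spermatogonia, 14 arms were measured, of which 4 were lower and none higher, near the 24.8% and 2.01% of all arms, with a median of -0.35. With TMM 1 was lower and 2 were higher, beside 13.4% and 9.06% of all arms, at a median of 0.099. The lower arms with the read total were miR-17-5p (-1.53), miR-106a-5p (-1.33), miR-146b-5p (-1.30) and miR-20a-5p (-1.24). For the 4 arms with most reads, none of them called with the read total, the log2 ratio was 0.85 for miR-10b-5p, -0.45 for miR-21-5p, 0.62 for let-7f-5p and 0.53 for let-7a-5p. Of the partners of miR-224 in ovarian follicle cells, miR-132-5p (-1.65) and miR-132-3p (-1.67) were lower under either scaling and miR-21-5p and miR-212-5p (-0.49) were not called, with a median of -1.07 over 4 arms, or -0.63 with TMM. The lower share among all arms was 24.8%, or 13.4% with TMM. None of the reads of the miR-132 arms lay at a known hairpin.

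A further list held other miRNAs with a copy on the X chromosome in mammals, and shares let-7f and miR-106a with the retinoic acid list. miR-106a-5p (-1.33) thus counts among the lower arms of each list. The reads of a name were not split by copy. In this list 24 arms were measured, of which 2 were higher and 3 lower, beside 2.01% and 24.8% of all arms. The median log2 ratio was -0.074. With TMM 7 were higher and none was lower, beside 9.06% and 13.4% of all arms, at a median of 0.37. The 6 arms of the 4 miRNAs had medians of 0.28 and 0.72 on the same scales. The most abundant others were miR-542-3p (-0.11), miR-450b-5p (0.58) and miR-450a-5p (0.14).

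The names with a ratio most like that of each miRNA's main arm were sought among arms with a summed read number within 4-fold and at least 50% of reads at known hairpins. For miR-224-5p they were miR-181a-5p (0.76), let-7d-5p (0.63) and miR-98-5p (0.60), of 73 candidates. For miR-452-5p they were miR-194-5p (0.10), miR-26b-5p (0.065) and miR-214-3p (0.058), of 74. For miR-221-3p they were miR-1388-5p (-0.11), miR-125b-3p (-0.069) and miR-127-3p (-0.066), of 82. For miR-222-3p they were miR-320a-3p (0.36), miR-181b-5p (0.31) and miR-365-3p (0.26), of 95. Likeness here is the distance in log2 ratio over 2 libraries, which was at most 0.13.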

How the data were processed

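Small RNA of CD49f-positive and CD49f-negative goat testicular cells was sequenced from TruSeq libraries, 1 per group; groups came from the labels. Per the deposited column description and file headers, the authors matched reads to mammalian miRBase hairpins, then to a goat genome and ESTs; no source used here names aligner, release or build. The reads of each arm are expected counts, as deposited and not always whole; copies of a listed sequence are whole counts, GC content is a percent, and the summed base score was not used, per the file headers.

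Reads were summed per name and arm; unnamed entries (0.555% and 0.611% of reads) stayed out. Ratios are shares of named reads with 0.5 reads added. Intervals (95%) are exact Clopper-Pearson for shares, exact conditional binomial for ratios and exact conditional for odds ratios, from counts rounded to whole reads. A call needed 100 summed reads, 2-fold and an interval without 1. TMM (edgeR 4.0.16) and median-of-ratios factors (DESeq2 1.42.0) supplied scaling only, in R 4.3.3, from the 592 names with at least 10 reads. That cut-off was chosen after the values of the 4 miRNAs and the factors at several cut-offs had been seen, to match earlier processing of these data; a cut-off of 100 reads was used first. The 10 most abundant names were ranked by mean share at first, and by summed reads after values had been seen. The ratios within a library were also chosen after seeing values. Python 3.11.15, SciPy 1.17.1, pandas 2.3.3 and matplotlib 3.10.9 did the rest; ratios and calls were tested on simulated Poisson counts. Named were every arm of the 4 miRNAs, the 3 nearest ratios to each main arm and at most 4 names per list by reads. miR-34c-3p, miR-193a-3p and miR-3431 were added after their values were seen. The 4 miRNAs and the lists were chosen with earlier results of these data known. Alternatives were other scalings, minimums and priors, mismatch-free reads, known hairpins and the most copied sequence.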

Additional observations from a re-analysis of the deposited data

How the results depend on the processing

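Scaling moved these results most. The median log2 ratio of the 6 arms, 0.28 with the read total, was 0.72 after TMM, 0.88 by the median of ratios and 0.58 by a total without the 10 most abundant miRNAs, and 2, 2 and 1 arms were then at least 2-fold higher, against 0. TMM factors also depend on the names they are taken from: over all 1808 names the median was 1.10 with 4 arms past 2-fold, and over names with at least 100 reads 0.62 with 1 arm, miR-224-5p (both added after seeing the data, as was the 10-read cut-off of the reported TMM values; the 100-read cut-off, used first, leaves miR-221-5p under 2-fold). Over the most copied sequences alone the median was 0.47, with no arm past 2-fold and miR-221-3p at 0.073, where the sequence differs between the libraries.

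Mismatch-free reads, known hairpins only, a prior of 5 reads and minimums of 10 or 1000 reads left the count at 0 and the median between 0.23 and 0.33. The ratios within a library were recomputed in ways chosen after seeing the data. Over mismatch-free reads miR-221-5p held 57.5% and 45.8% of miR-221 reads, and miR-222-3p 36.5% and 31.3% of the 3p pair. Over the most copied sequences miR-221-5p held 51.5% and 44.3%, with an odds ratio of 1.34 (1.03 to 1.73), and miR-224-5p 67.7% and 57.8% of its pair with miR-452-5p. The miR-221-3p sequence counted there has 22 bases in CD49f-positive and 23 in CD49f-negative cells, so odds ratios with it compare unlike forms. All 3 odds ratios stayed above 1 in these settings; the cause of the shifts was not tested. No paired analysis was possible because each group has 1 library. miR-222-5p and miR-224-3p are limited by depth.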
